A study of Homo sapiens with 24 samples.

Results

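The response to PHA-767491 added to lapatinib was compared between 2 triple-negative breast cancer cell lines, Hs578T and SKBR7, in 12 of the 24 RNA sequencing libraries of the series. In each line, 3 libraries came from cells co-treated for 6 h with 3.16 μM lapatinib and 1 μM PHA-767491, and 3 came from cells given 3.16 μM lapatinib alone for the same 6 h. Lapatinib was therefore present in all 12 libraries, and the response of a line is co-treatment minus lapatinib. The line difference is the Hs578T response minus the SKBR7 response, on the log2 scale of the deposited values, taken from the means of 3 libraries per group. Of 36481 genes in the table, the 12967 with a value in all 12 libraries were tested. The Hs578T libraries of DMSO (0.1%) and of PHA-767491 alone were not used. SKBR7 libraries of PHA-767491 alone (1 μM) and DMSO (0.1%), 3 each, supplied side values only. The study asked whether a dual cdc7/CDK9 inhibitor makes triple-negative lines that resist EGFR inhibitors sensitive to them, and the present comparison asks which transcripts answered differently in the 2 lines.

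Lapatinib inhibits the tyrosine kinases EGFR and HER2. PHA-767491 inhibits cdc7, the kinase that fires replication origins, and CDK9, the kinase of P-TEFb, which releases paused RNA polymerase II into elongation. The study also lists weaker targets of the compound, among them GSK3b, CDK1, CDK2, CDK5 and PLK1. It proposes that kinases other than cdc7 and CDK9 likely add to the synergy. Transcripts with a short half-life, among them MCL1 and many stress and mitotic genes, are known to drop quickly when CDK9 is inhibited, and many p53 target genes (CDKN1A, MDM2) respond quickly to stress of transcription or replication.

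Libraries were checked before any gene was read. The number of genes listed, the only trace of depth in log2 values, ran from 20368 to 23017 in Hs578T. In SKBR7, it was 16232 in co-treatment replicate 1 and 18021 in lapatinib replicate 2, against 20287 to 23282 in the other 4. The median log2 value over the tested genes was 3.73 and 4.17 in those libraries and 4.59 to 4.97 in the rest. SKBR7 lapatinib replicate 2 correlated with its group at r of 0.910 to 0.925 over genes, while all other pairs of one group reached 0.958 to 0.986. In the same library the median of 13 mitochondrially encoded mRNAs was 6.07, against 9.83 to 10.11 in the other SKBR7 libraries. It also held COL1A1 at 8.95, against at most 3.997 in the other SKBR7 libraries and 12.24 to 12.72 in Hs578T, and COL1A2 at 8.16 against at most 2.005. The part of these transcripts in the results was not tested beyond the repeat. Both libraries were left out in that repeat, and results are given with all 12 libraries and with the 10.

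**Figure D1:**
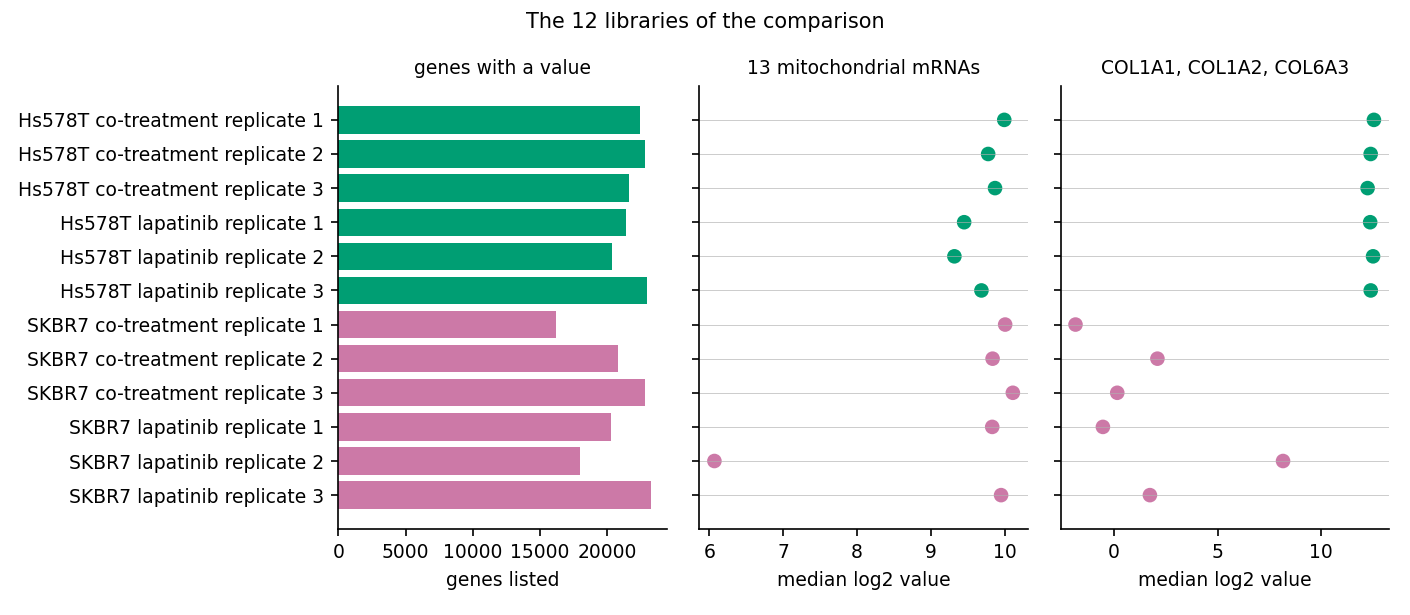
For each of the 12 libraries, the number of genes with a value (bars, from 0), the median log2 value of 13 mitochondrially encoded mRNAs and the median log2 value of COL1A1, COL1A2 and COL6A3 (points), with Hs578T in green and SKBR7 in pink. SKBR7 co-treatment replicate 1 lists 16232 genes and SKBR7 lapatinib replicate 2 lists 18021, and the latter sits at 6.07 for the mitochondrial mRNAs, below all others.

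The lines differed in epithelial and mesenchymal markers. VIM, the mesenchymal intermediate filament, was at 11.9 to 12.2 in Hs578T and at 8.56 to 9.46 in SKBR7. CDH1, the epithelial cadherin, was at 4.06 to 5.64 in SKBR7 and at or under -0.01 in Hs578T. EPCAM, by contrast, was at or below 0 or not listed in SKBR7. The summed level of 25 epithelial markers was 7.15 to 7.82 in Hs578T and 12.0 to 13.0 in SKBR7, and that of 20 mesenchymal markers was 13.8 to 14.2 and 10.6 to 11.1. KRT8 was the highest epithelial marker in SKBR7, at 10.8 to 11.9. With 14 to 22 of the 25 listed, the median epithelial marker in SKBR7 was only 0.10 to 1.90. This was below the SKBR7 median of the mesenchymal markers, 2.60 to 4.08, so SKBR7 was not plainly epithelial by these lists. Of 12 leukocyte markers, 3 to 9 were listed in a library, with a summed log2 level of at most 5.05, and PTPRC, the pan-leukocyte marker, was not listed in 5 of 6 SKBR7 libraries. The 10 endothelial markers summed to at most 5.02. In bulk RNA of a line, fewer cells that express a gene and less of its RNA per cell cannot be told apart.

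With all 12 libraries, 2 genes passed for the line difference (limma, Benjamini-Hochberg adjusted p below 0.05). CDKN1A had the lower response in Hs578T, which is 1 of 12967 genes or 0.00771% in that direction. TGM2 had the higher response in Hs578T, also 0.00771%. At an unadjusted p below 0.05 stood 679 genes. CDKN1A encodes p21, an inhibitor of cyclin-dependent kinases and a p53 target, and lies on chromosome 6, 36676460 to 36687339 (GRCh38). In Hs578T, its log2 values were 4.70, 4.80 and 4.52 with co-treatment and 5.88, 5.65 and 5.81 with lapatinib. In SKBR7, they were 9.35, 9.61 and 9.80 with co-treatment and 8.58, 8.62 and 9.13 with lapatinib. Every co-treated library was below every lapatinib library in Hs578T and above every one in SKBR7. The response in Hs578T was -1.11 (SE 0.16, adjusted p = 5.78e-11), and CDKN1A fell. In SKBR7 it was 0.81 (SE 0.25, adjusted p = 0.101) over 6 libraries and 0.85 (SE 0.12, adjusted p = 5.99e-10) over 4. The line difference was -1.92 (SE 0.27, 95% interval -2.49 to -1.35, adjusted p = 0.00676 by limma). With the 10 libraries, it was -1.96 (SE 0.20, adjusted p = 5.51e-06), and it passed in each of the 10 fits that left out a further library. It did not pass without SKBR7 co-treatment replicate 2 (adjusted p = 0.0544) or replicate 3 (adjusted p = 0.0758) of the 12. Nor did it pass by limma without a variance trend (adjusted p = 0.742) or with all 24 libraries in the fit (adjusted p = 0.9998). Without lapatinib, PHA-767491 against DMSO in SKBR7 gave -0.39 for CDKN1A (adjusted p = 0.00153), so that the transcript fell there.

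The CDKN1A window that RefSeq places around its start site (GRCh38.p14, chr6:36678464-36678763, plus strand, 250 bases before the start and 50 after) is shown because CDKN1A was the lower gene called with all 12 libraries. Capitals mark GGGCGG, the core of the GC box bound by SP1-type factors, which a search of both strands found 4 times here, 2 of them overlapping. Over all tested genes with a window, 78.6% hold this motif.
CDKN1A: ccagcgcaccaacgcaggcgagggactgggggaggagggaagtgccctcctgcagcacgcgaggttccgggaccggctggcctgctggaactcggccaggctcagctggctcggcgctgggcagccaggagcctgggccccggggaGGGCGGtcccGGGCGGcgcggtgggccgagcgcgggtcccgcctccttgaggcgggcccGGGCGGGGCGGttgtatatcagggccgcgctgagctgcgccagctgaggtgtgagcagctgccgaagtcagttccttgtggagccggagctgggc

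TGM2, which encodes transglutaminase 2, a protein cross-linking enzyme of the matrix and cytosol, lies on chromosome 20, 38127387 to 38166578. Log2 values of TGM2 in co-treated Hs578T cells were 5.31, 5.39 and 5.26, against 3.49, 3.65 and 4.08 with lapatinib alone. The SKBR7 values were 11.26, 11.54 and 11.68 with co-treatment and 11.29, 11.38 and 11.60 with lapatinib. The co-treated Hs578T libraries were all above the lapatinib libraries, while the SKBR7 groups overlapped at a far higher level. TGM2 rose in Hs578T by 1.58 (SE 0.20, adjusted p = 1.24e-13), and its SKBR7 response was 0.07 over 6 libraries and 0.16 over 4 (adjusted p = 1.00 and 0.662). The line difference was 1.52 (SE 0.25, 95% interval 0.99 to 2.04, adjusted p = 0.0341 by limma) and 1.42 (SE 0.19, adjusted p = 0.000215) with the 10 libraries. It passed in 3 of the 12 fits that left out 1 library, with adjusted p from 0.00175 to 0.167 over those fits. With 12 libraries, it did not pass by limma after centring (adjusted p = 0.163), without a filter (0.0516) or without a variance trend (0.963). With all 24 libraries in the fit, it did not pass either (adjusted p = 0.9998).

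**Figure D2:**
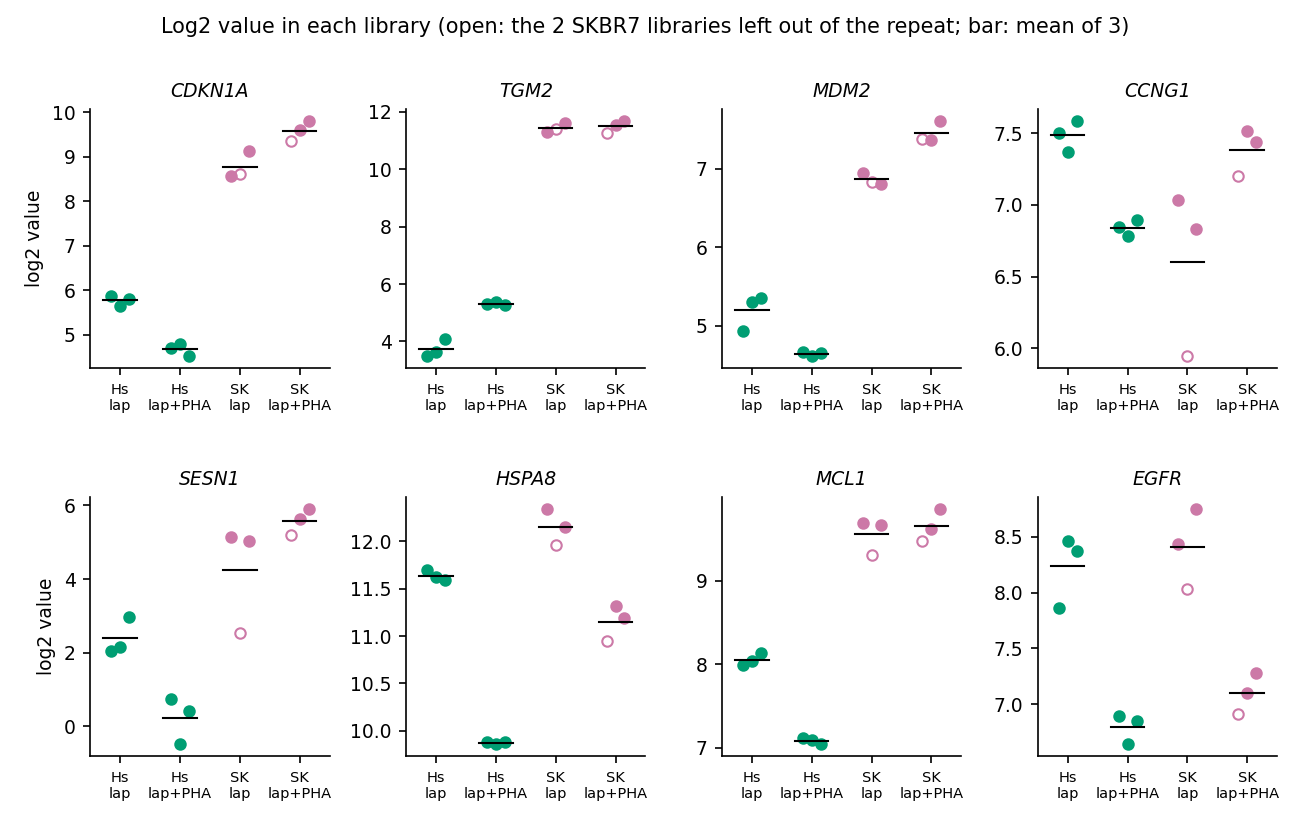
Log2 values of 8 genes in each of the 12 libraries (points), with the mean of 3 libraries (bars), in Hs578T (green) and SKBR7 (pink) under lapatinib and co-treatment. Open points are SKBR7 co-treatment replicate 1 and SKBR7 lapatinib replicate 2. CDKN1A, MDM2, CCNG1 and SESN1 lie lower with co-treatment in Hs578T and higher in SKBR7, TGM2 and MCL1 move in Hs578T with overlapping groups in SKBR7, and HSPA8 and EGFR decline in the 2 lines.

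When SKBR7 co-treatment replicate 1 and lapatinib replicate 2 were left out, 109 genes had a higher response in Hs578T (0.841% of 12967) and 224 a lower one (1.73%). Both genes called with 12 libraries were among them, and 1995 genes stood at an unadjusted p below 0.05. When the 10 libraries were also quantile-normalised anew over the tested genes, 779 (6.01%) were higher and 1086 (8.38%) lower. All 333 genes called with the 10 libraries were called there too, in the same direction, and made up 14.0% of the higher and 20.6% of the lower calls. The median line difference over all genes was 0.21 with 12 libraries, 0.09 with 10 and 0.03 after the new normalisation, so that the deposited scale was not centred between the lines. Within each line, co-treatment against lapatinib gave 3712 higher (28.6%) and 2344 lower genes (18.1%) in Hs578T. A fit over the 12 libraries of both lines gave 126 higher and 281 lower ones there, so that the balance turned with the fit. In SKBR7 it gave 42 (0.324%) and 78 (0.602%) over 6 libraries, or 467 (3.6%) and 595 (4.59%) over 4. The responses of the lines went with each other over the 12967 genes, with a Spearman correlation of 0.45 for 12 libraries and 0.58 for 10. This is a description across genes, which share libraries and are not independent.

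The 333 genes were described by their mean responses in the 10 libraries, with 0.5 on the log2 scale as the size counted, a rule set after their values were seen. Among the 224 lower ones, 129 were past -0.5 in Hs578T and within 0.5 of zero in SKBR7. In 30, the SKBR7 response was past 0.5 and that of Hs578T within it, in 20 the lines went in opposite directions, and in 28 both lines were past -0.5 with the larger change in Hs578T. The rest were 16 within 0.5 in both lines and 1 past 0.5 in both. Among the 109 higher ones, 44 were past 0.5 in Hs578T alone, 41 were past -0.5 in SKBR7 alone, 13 went in opposite directions, 3 were past -0.5 in both and 8 were within 0.5 in both. Among the called genes, a lower line difference was thus mostly a larger decrease in Hs578T. A higher one was divided between increases in Hs578T and decreases in SKBR7. The genes were called by the difference of these same responses, so the classes only describe them, with no share over all genes beside them.

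**Figure D3:**
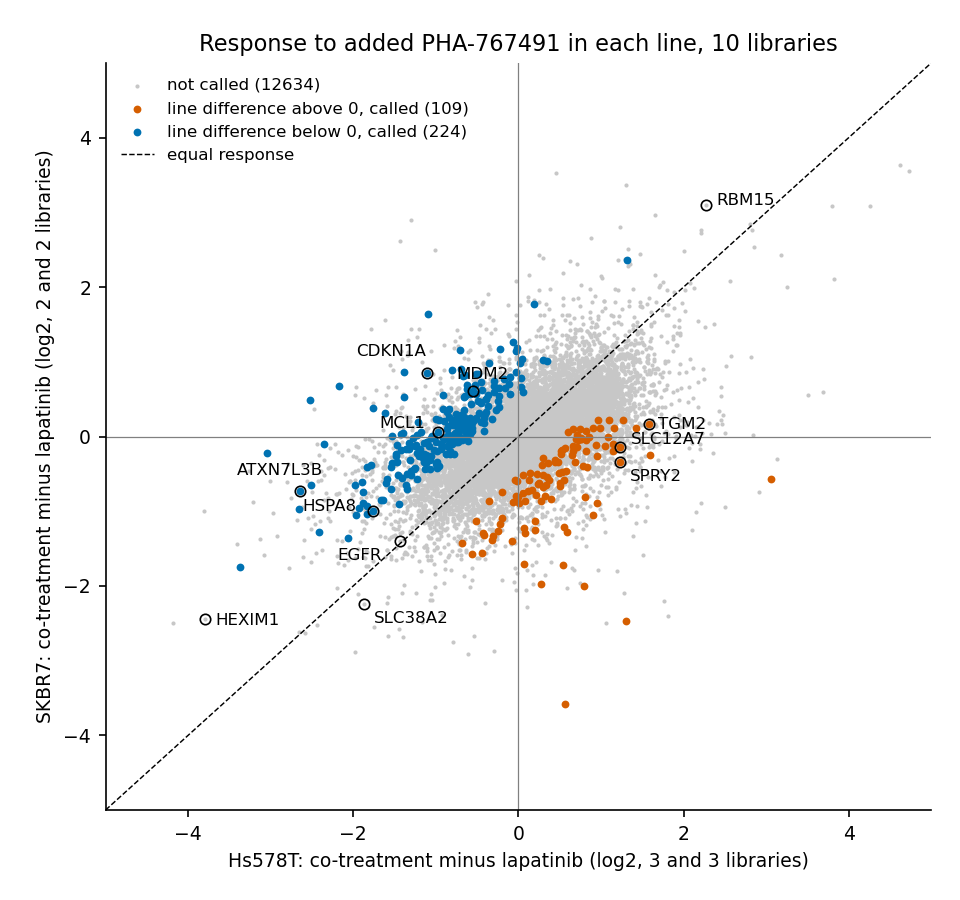
Mean response to added PHA-767491 (co-treatment minus lapatinib, log2) of 12967 genes in Hs578T (x axis, 3 and 3 libraries) and SKBR7 (y axis, 2 and 2 libraries), with the dashed line marking equal response. The 109 genes called above 0 (orange) lie below the dashed line and the 224 called below 0 (blue) lie above it, and named genes are ringed.

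Of 24 tested p53 target genes, 9 had a lower response in Hs578T with 10 libraries and 0 a higher one (limma), against 1.73% and 0.841% of all genes. At an unadjusted p below 0.05 there were 13 lower members and 1 higher one. With 12 libraries CDKN1A was the only member that passed, and 10 were lower at an unadjusted p below 0.05. The count of lower members ran from 5 to 12 when a further library was left out, and was 5 without SKBR7 co-treatment replicate 3. The median line difference of the list was -0.58 with 10 libraries and -0.69 with 12, beside 0.09 and 0.21 over all genes. In SKBR7, 13 of the 24 rose and 0 fell over 4 libraries, beside 3.6% and 4.59% of all genes. Over 6 libraries, 2 rose (0.324% of all genes). In Hs578T, 4 rose and 8 fell, beside 28.6% and 18.1% of all genes. With PHA-767491 against DMSO in SKBR7, where 56 of 17509 genes rose (0.32%) and 826 fell (4.72%), 2 members rose and 1 fell, with a median of -0.03. The 9 members, named here after their values were seen, are CDKN1A, CCNG1, MDM2, SESN1, SESN2, TP53INP1, PLK2, ZMAT3 and RRM2B.

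MDM2, the ubiquitin ligase that degrades p53 and is itself a p53 target, lies on chromosome 12, 68808172 to 68850686. The 3 co-treated Hs578T libraries held MDM2 at log2 values of 4.67, 4.61 and 4.65, and the 3 lapatinib libraries at 4.93, 5.30 and 5.36. Co-treated SKBR7 libraries were at 7.39, 7.37 and 7.61, and those of lapatinib at 6.95, 6.84 and 6.81. The groups did not overlap in either line and moved in opposite directions. MDM2 fell in Hs578T (-0.55, adjusted p = 0.00482) and rose in SKBR7 over 4 libraries (0.61, adjusted p = 0.000897). The line difference was -1.14 with 12 libraries (95% interval -1.78 to -0.50, adjusted p = 0.414 by limma) and -1.16 (SE 0.22, adjusted p = 0.00398) with 10.

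The MDM2 window of RefSeq (GRCh38.p14, chr12:68808767-68809066, plus strand) is shown because it holds the 1 element of p53 type found in the windows of the 9 lower members. Capitals mark that element, 2 adjacent half-sites with the C and G of each core kept and at most 1 other mismatch per half-site, which starts at position -94 relative to the start site. The search ran over both strands and was chosen after the gene values were seen. It found such an element in 15 of 8929 genes with a window (0.168%) and in 2 of 19 members of the p53 list (DDB2 and MDM2). A match is a description of the letters.
MDM2: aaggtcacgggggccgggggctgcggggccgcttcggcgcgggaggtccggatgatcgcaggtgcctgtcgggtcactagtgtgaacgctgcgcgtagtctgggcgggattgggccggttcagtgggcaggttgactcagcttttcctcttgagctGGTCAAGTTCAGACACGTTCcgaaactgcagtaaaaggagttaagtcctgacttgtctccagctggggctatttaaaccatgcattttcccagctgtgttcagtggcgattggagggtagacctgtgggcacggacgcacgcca

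CCNG1 (cyclin G1) is a p53 target whose product recruits a phosphatase to MDM2. CCNG1 reached log2 values of 6.85, 6.78 and 6.90 in Hs578T under co-treatment and 7.50, 7.37 and 7.58 under lapatinib. For SKBR7, the same log2 values were 7.20, 7.51 and 7.44 and 7.04, 5.95 and 6.83. Its groups did not overlap in either line. CCNG1 fell in Hs578T (-0.64, adjusted p = 3.61e-09) and rose in SKBR7 over 4 libraries (0.54, adjusted p = 0.00424), with a line difference of -1.18 (SE 0.16, adjusted p = 0.000163). SESN1, a stress-induced inhibitor of mTORC1, was the p53 target with the largest line difference in size. In Hs578T, its log2 values were 0.73, -0.49 and 0.41 with co-treatment and 2.05, 2.15 and 2.97 with lapatinib. In SKBR7, they were 5.21, 5.62 and 5.90 with co-treatment and 5.13, 2.54 and 5.04 with lapatinib. Its lapatinib level in SKBR7 was lowest in the library left out of the repeat. SESN1 fell in Hs578T (-2.17, adjusted p = 0.000296), and its response in SKBR7 was 0.68 over 4 libraries (adjusted p = 0.0631), for a line difference of -2.84 (SE 0.63, adjusted p = 0.0131). ZMAT3, an RNA-binding zinc finger protein under p53, behaved otherwise in Hs578T. Log2 values of ZMAT3 in co-treated Hs578T cells were 4.89, 4.89 and 4.76, against 4.93, 5.15 and 5.13 with lapatinib alone. The SKBR7 values were 7.06, 7.12 and 7.40 with co-treatment and 5.97, 5.17 and 6.20 with lapatinib. Its change in Hs578T did not pass (-0.22, adjusted p = 0.294), it rose in SKBR7 over 4 libraries (1.18, adjusted p = 7.70e-11), and the line difference was -1.40 (SE 0.22, adjusted p = 0.00104).

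The other members divided in the same way. TP53INP1, a p53-induced nuclear and autophagy protein, fell in Hs578T (-1.09) and rose in SKBR7 over 4 libraries (1.63), with a line difference of -2.72 (SE 0.59, adjusted p = 0.0118). PLK2, a polo-like kinase of the stress response, fell by 0.44 in Hs578T and rose by 0.63 in SKBR7, with a line difference of -1.06 (SE 0.15, adjusted p = 0.000286). SESN2, the sestrin that senses leucine, rose in SKBR7 (1.78, adjusted p = 0.000235) while its Hs578T response was 0.19 (adjusted p = 0.286). RRM2B, the p53-inducible small subunit of ribonucleotide reductase, fell in Hs578T (-1.43, adjusted p = 5.04e-15) with 0.03 in SKBR7 (adjusted p = 0.963). Their line differences were -1.59 (SE 0.33, adjusted p = 0.00883) and -1.46 (SE 0.24, adjusted p = 0.00136).

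Of 40 genes of mitotic entry and the spindle, 13 had a lower response in Hs578T and 0 a higher one with 10 libraries, beside 1.73% and 0.841% of all genes, and 0 passed with 12 libraries. The other 27 did not pass, and 6 of the 40 differences were above zero. At an unadjusted p below 0.05, 13 were lower and 0 higher with 12 libraries, and 23 and 0 with 10. The median was -0.55 with 10 libraries and -0.54 with 12. The count ran from 5 to 17 when a further library was left out, with the lowest count without SKBR7 co-treatment replicate 3. In Hs578T, 35 of the 40 fell and 2 rose, beside 18.1% and 28.6% of all genes. In SKBR7, 14 fell and 4 rose over 4 libraries, beside 4.59% and 3.6%. The 13 members, named after their values were seen, are AURKA, CCNB1, CDC20, CDC25B, CENPF, KIF11, KIF18A, KIF20B, KIF23, PLK1, TOP2A, TPX2 and TTK.

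AURKA, the kinase of centrosome maturation and spindle assembly, is an example. The 3 co-treated Hs578T libraries held AURKA at log2 values of 6.58, 6.66 and 6.51, and the 3 lapatinib libraries at 7.89, 7.69 and 7.73. Co-treated SKBR7 libraries were at 7.07, 7.60 and 7.54, and those of lapatinib at 7.75, 6.87 and 7.73. Hs578T groups did not overlap, whereas the SKBR7 groups did. AURKA fell in Hs578T (-1.19, SE 0.10, adjusted p = 1.46e-29) and its response in SKBR7 was -0.17 over 4 libraries (SE 0.13, adjusted p = 0.577). The line difference was -1.02 (SE 0.15, adjusted p = 0.000349), and -1.14 with 12 libraries (adjusted p = 0.414). CDC25B, the phosphatase that activates CDK1, had the largest difference of the list in size at -1.14 (SE 0.16, adjusted p = 0.000324), with -1.55 in Hs578T and -0.40 in SKBR7. KIF11, the motor that separates spindle poles, fell in both lines, by 1.88 in Hs578T and 0.89 in SKBR7, and differed by -0.99 (SE 0.16, adjusted p = 0.00135). CDC20, the activator of the anaphase-promoting complex, differed by -0.95 (SE 0.16, adjusted p = 0.00138) and PLK1, the mitotic polo-like kinase, by -0.73 (SE 0.16, adjusted p = 0.0106). CENPF, a kinetochore protein, went in opposite directions, falling by 0.30 in Hs578T and rising by 0.60 in SKBR7 over 4 libraries. The G1 list behaved otherwise. CCND1 (cyclin D1) was its only lower member of 20, at -0.78 (SE 0.16, adjusted p = 0.00766), and 0 were higher. Over all genes, 1.73% were lower and 0.841% higher.

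Apart from CDKN1A, the lower genes that the rule for named genes took by size all came from the 10 libraries. ATXN7L3B, a paralogue of the SAGA complex adaptor ATXN7L3, lies on chromosome 12, 74537827 to 74545430. ATXN7L3B reached log2 values of 3.20, 3.33 and 2.94 in Hs578T under co-treatment and 5.87, 5.64 and 5.91 under lapatinib. For SKBR7, the same log2 values were 5.12, 5.70 and 5.84 and 6.45, 5.71 and 6.56. It fell in both lines, by 2.65 in Hs578T and by 0.73 in SKBR7 over 4 libraries, and the SKBR7 groups overlapped through the lapatinib library that was left out. The line difference was -1.92 (SE 0.26, adjusted p = 0.000256). LMNB1 (lamin B1), a component of the nuclear lamina, fell in Hs578T by 1.83 with a response of -0.41 in SKBR7 (adjusted p = 0.0584), and differed by -1.42 (SE 0.16, adjusted p = 4.18e-05). PPP1R10, a nuclear regulatory subunit of protein phosphatase 1, fell by 3.37 and 1.74, and differed by -1.63 (SE 0.26, adjusted p = 0.00104).

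GTPBP4, a GTPase of large ribosomal subunit assembly, went in opposite directions. In Hs578T, its log2 values were 6.18, 6.45 and 6.18 with co-treatment and 7.15, 7.02 and 7.07 with lapatinib. In SKBR7, they were 8.20, 8.63 and 8.68 with co-treatment and 7.75, 8.39 and 7.78 with lapatinib. Over 4 libraries SKBR7 rose by 0.89 (adjusted p = 3.84e-10) and Hs578T fell by 0.81 (adjusted p = 4.65e-12). The line difference of -1.70 (SE 0.15, adjusted p = 1.22e-06) was -1.34 with 12 libraries (adjusted p = 0.158), and SKBR7 lapatinib replicate 2 lay among the co-treated libraries. RBM14, an RNA-binding coactivator, and FAM102B also went in opposite directions without overlap in any of the 12 libraries, with line differences of -1.47 (SE 0.21, adjusted p = 0.000349) and -1.47 (SE 0.22, adjusted p = 0.000547). RBM12B, an RNA-binding protein, and IER5, an immediate early gene linked to heat shock factor HSF1, did the same at -1.60 (SE 0.34, adjusted p = 0.00914) and -1.47 (SE 0.22, adjusted p = 0.000463). KRI1, a ribosome assembly factor, completed the 12 lower genes with SESN2 and RRM2B above, at -1.44 (SE 0.28, adjusted p = 0.00559).

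Survival and stress genes were examined next. MCL1, the anti-apoptotic BCL2 family member, was the 1 called member of 12 in its list, and was lower, beside 1.73% of all genes. Log2 values of MCL1 in co-treated Hs578T cells were 7.12, 7.09 and 7.04, against 7.99, 8.04 and 8.13 with lapatinib alone. The SKBR7 values were 9.48, 9.62 and 9.86 with co-treatment and 9.70, 9.31 and 9.67 with lapatinib. It fell in Hs578T (-0.97, adjusted p = 8.37e-22), while in SKBR7 the groups overlapped and the response was 0.06 over 4 libraries (adjusted p = 0.895). The line difference was -1.03 (SE 0.14, adjusted p = 0.000174), with -1.06 over 12 libraries (95% interval -1.54 to -0.59, adjusted p = 0.165). BCL2 itself, listed at low levels, had -1.79 with an adjusted p of 0.482.

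Of 25 heat shock chaperones, 2 were lower and 1 higher, beside 1.73% and 0.841% of all genes, with a median of 0.11. HSPA8, the constitutive cytosolic HSP70, was the lower member of largest size that passed. The 3 co-treated Hs578T libraries held HSPA8 at log2 values of 9.88, 9.86 and 9.88, and the 3 lapatinib libraries at 11.69, 11.62 and 11.60. Co-treated SKBR7 libraries were at 10.95, 11.31 and 11.19, and those of lapatinib at 12.34, 11.96 and 12.15. It fell in both lines with no overlap, by 1.76 (SE 0.10) in Hs578T and 0.99 (SE 0.15) in SKBR7 over 4 libraries, and differed by -0.77 (SE 0.14, adjusted p = 0.00317). HSPA5, the chaperone of the endoplasmic reticulum, differed by -0.54 (SE 0.14, adjusted p = 0.0319). DNAJB4, an HSP40 co-chaperone, was the higher member at 0.85 (SE 0.18, adjusted p = 0.00981).

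Signalling, secreted and metabolic genes held some further lower members. Of 33 TGF-β genes, 3 were lower and 0 higher with 10 libraries, beside 1.73% and 0.841% of all genes. After the new normalisation, 3 were lower and 3 higher, beside 8.38% and 6.01% of all genes. SMAD5 and SMAD3, signal transducers of the TGF-β superfamily, were among the members lower with 10 libraries, at -0.96 and -0.66. SMAD3 rose in both lines, by 0.35 and 1.01, with the larger change in SKBR7. THBS1 (thrombospondin 1) differed by -1.15 (SE 0.17, adjusted p = 0.000349), SLC2A1, the glucose transporter GLUT1, by -1.05 (SE 0.17, adjusted p = 0.00104), and CTGF, a target of YAP and TAZ, by -0.82 (SE 0.21, adjusted p = 0.0325). Of 25 genes of cholesterol synthesis, 3 were lower and 0 higher, beside 1.73% and 0.841% of all genes. The lower count ran from 1 to 5 when a further library was left out, with 1 without SKBR7 co-treatment replicate 3 and 5 without SKBR7 lapatinib replicate 3. HMGCS1, an early enzyme of the pathway, fell by 0.53 in Hs578T and rose by 0.69 in SKBR7 over 4 libraries, and differed by -1.22 (SE 0.21, adjusted p = 0.00209). INSIG1, which holds SREBP back in the endoplasmic reticulum, rose in SKBR7 (0.79) and differed by -0.90 (SE 0.18, adjusted p = 0.00628). SQLE, the squalene epoxidase, fell in Hs578T (-0.53) and differed by -0.76 (SE 0.15, adjusted p = 0.00753). IGF1R, the receptor of insulin-like growth factor 1, was the 1 lower member of 28 mTOR, PI3K and AKT genes, at -1.19 (SE 0.24, adjusted p = 0.00629). After the new normalisation, 6 of the 28 were lower and 0 higher, beside 8.38% and 6.01% of all genes.

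A list of 42 genes of the MITF family and of survival, taken up by the study, had 5 lower members and 0 higher ones with 10 libraries, beside 1.73% and 0.841% of all genes, with a median of -0.45. The lower count ran from 1 to 8 when a further library was left out, with 1 without SKBR7 co-treatment replicate 3 and 8 without SKBR7 lapatinib replicate 3. The study chose these genes on the libraries of this series, so the list is no independent evidence of its direction. The 5 are CDC25B, CTGF, LPCAT1, ROCK2 and TIMP3, named after their values were seen. ROCK2, a kinase of actomyosin contraction, fell in both lines, by 1.83 and 0.93, and differed by -0.90 (SE 0.20, adjusted p = 0.0132). MITF itself, at -0.49, had an adjusted p of 0.826.

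Splicing regulators held called members of both directions. Of 36 SR proteins, hnRNPs and CLK kinases, 6 were higher and 2 lower with 10 libraries, beside 0.841% and 1.73% of all genes, and 0 passed with 12, where 4 were higher and 2 lower at an unadjusted p below 0.05. The median was 0.15 beside 0.09 over all genes. The higher count ran from 2 to 7 when a further library was left out, with the lowest count without SKBR7 co-treatment replicate 2. In SKBR7, 17 of the 36 fell and 1 rose over 4 libraries, beside 4.59% and 3.6% of all genes. In Hs578T, 18 fell and 5 rose, beside 18.1% and 28.6%. The called members, named after their values were seen, are SRSF7, HNRNPD, HNRNPDL, HNRNPL, HNRNPH3 and HNRNPH1 above zero, and SRSF5 and HNRNPU below it.

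SRSF7, an SR protein that binds exonic enhancers, had the largest difference. SRSF7 reached log2 values of 6.91, 6.92 and 6.76 in Hs578T under co-treatment and 7.44, 7.15 and 7.32 under lapatinib. For SKBR7, the same log2 values were 5.94, 6.33 and 6.03 and 7.67, 6.64 and 7.81. Its groups did not overlap in either line. SRSF7 fell by 0.44 in Hs578T (adjusted p = 8.84e-05) and by 1.56 in SKBR7 over 4 libraries (adjusted p = 4.44e-22), and differed by 1.12 (SE 0.17, adjusted p = 0.000557). HNRNPD (AUF1), which binds AU-rich elements of unstable mRNAs, fell by 0.43 and 1.29, and differed by 0.86 (SE 0.14, adjusted p = 0.00138). HNRNPDL, its relative, fell by 0.68 and 1.42 and differed by 0.74 (SE 0.16, adjusted p = 0.0123). SRSF5 went the other way, with falls of 1.55 and 0.70 and a difference of -0.85 (SE 0.21, adjusted p = 0.0270). The family was thus divided, and its members did not share a direction.

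Among 18 NF-κB factors and feedback genes, 4 were higher (TRAF1, BIRC3, NFKB2 and CYLD) and 1 was lower (TNFAIP3) with 10 libraries, beside 0.841% and 1.73% of all genes. The higher count ran from 1 to 6 when a further library was left out, with the lowest count without SKBR7 co-treatment replicate 2. NFKB2, the p100 precursor of the non-canonical pathway, had values that did not overlap in either line. In Hs578T, its log2 values were 6.61, 6.68 and 6.28 with co-treatment and 6.21, 6.19 and 6.21 with lapatinib. In SKBR7, they were 7.42, 8.09 and 8.05 with co-treatment and 8.62, 9.64 and 9.11 with lapatinib. It rose in Hs578T (0.32, adjusted p = 0.0156) and fell in SKBR7 over 4 libraries (-0.79, adjusted p = 2.61e-08), with a line difference of 1.11 (SE 0.19, adjusted p = 0.00150) and 1.59 over 12 libraries (adjusted p = 0.153). BIRC3 (cIAP2), a ubiquitin ligase of TNF receptor signalling, rose in Hs578T by 0.83 and differed by 1.24 (SE 0.26, adjusted p = 0.00820). TNFAIP3 (A20), a deubiquitinase that ends NF-κB signalling, rose in both lines, by 0.30 in Hs578T and 1.03 in SKBR7, and differed by -0.73 (SE 0.19, adjusted p = 0.0368). CYLD, another deubiquitinase, fell in SKBR7 (-0.79) and differed by 0.76 (SE 0.19, adjusted p = 0.0267).

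The median of 19 ERK feedback regulators was 0.54 with 10 libraries and 0.56 with 12, beside 0.09 and 0.21 over all genes. With 10 libraries, 18 of the 19 differences were above zero, beside 58.5% of those over all genes. After the new normalisation, the median was 0.44, beside 0.03 over all genes. SPRY2 and ERRFI1 passed with 10 libraries, beside 0.841% of all genes, and 0 were lower. The higher count ran from 1 to 4 when a further library was left out, with 1 without SKBR7 co-treatment replicate 2 and 4 without SKBR7 lapatinib replicate 1, and was 7 after the new normalisation (6.01% of all genes). SPRY2 (sprouty 2) inhibits receptor tyrosine kinase signalling. Log2 values of SPRY2 in co-treated Hs578T cells were 6.27, 6.29 and 6.08, against 5.10, 4.73 and 5.13 with lapatinib alone. The SKBR7 values were 3.19, 4.41 and 4.73 with co-treatment and 4.81, 3.71 and 5.01 with lapatinib. It rose in Hs578T (1.22, adjusted p = 1.79e-16), the SKBR7 groups overlapped, and the difference was 1.56 (SE 0.26, adjusted p = 0.00138). ERRFI1 (MIG6), an inhibitor of EGFR, rose in Hs578T by 0.52 with -0.47 in SKBR7 (adjusted p = 0.460), and differed by 0.99 (SE 0.21, adjusted p = 0.00995). DUSP6, the ERK phosphatase, had 0.75 (95% interval 0.01 to 1.49), which did not pass. FOSL1, a target of ERK signalling, rose in both lines, by 0.81 and 1.27, with a line difference of -0.46 (95% interval -0.83 to -0.09, adjusted p = 0.200).

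The higher genes taken by size were TGM2 and 11 that did not pass with the 12 deposited libraries but passed with the 10. Besides SPRY2 and BIRC3, they included SLC12A7, a potassium and chloride cotransporter (1.37 (SE 0.30, adjusted p = 0.0131)), KRT7, a keratin of simple epithelia (1.35 (SE 0.32, adjusted p = 0.0208)), and SLC39A10, a zinc importer (1.32 (SE 0.22, adjusted p = 0.00138)). All 3 rose in Hs578T, by 1.23, 1.15 and 1.43, and their SKBR7 responses did not pass. STK32B, a serine/threonine kinase, HIPK2, a kinase known to phosphorylate p53, and NFE2L3, a transcription factor of the NRF family, likewise rose in Hs578T, by 1.15, 0.95 and 1.05. Their line differences were 1.24, 1.21 and 1.17 (adjusted p = 0.00761, 0.0211 and 0.0167). ZNF326, a zinc finger protein of a splicing complex, instead fell in SKBR7 by 1.23 over 4 libraries with 0.07 in Hs578T, and differed by 1.30 (SE 0.25, adjusted p = 0.00548). PABPN1, the nuclear poly(A)-binding protein, rose in Hs578T by 0.39 with -0.83 in SKBR7 (adjusted p = 0.0810) and differed by 1.23 (SE 0.28, adjusted p = 0.0170). Among 7 epithelial markers tested, KRT7 and KRT8 were higher and KRT18, the usual partner of KRT8, was lower, beside 0.841% and 1.73% of all genes. KRT8 differed by 0.80 (SE 0.20, adjusted p = 0.0325) and KRT18 by -0.63 (SE 0.15, adjusted p = 0.0184).

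**Figure D4:**
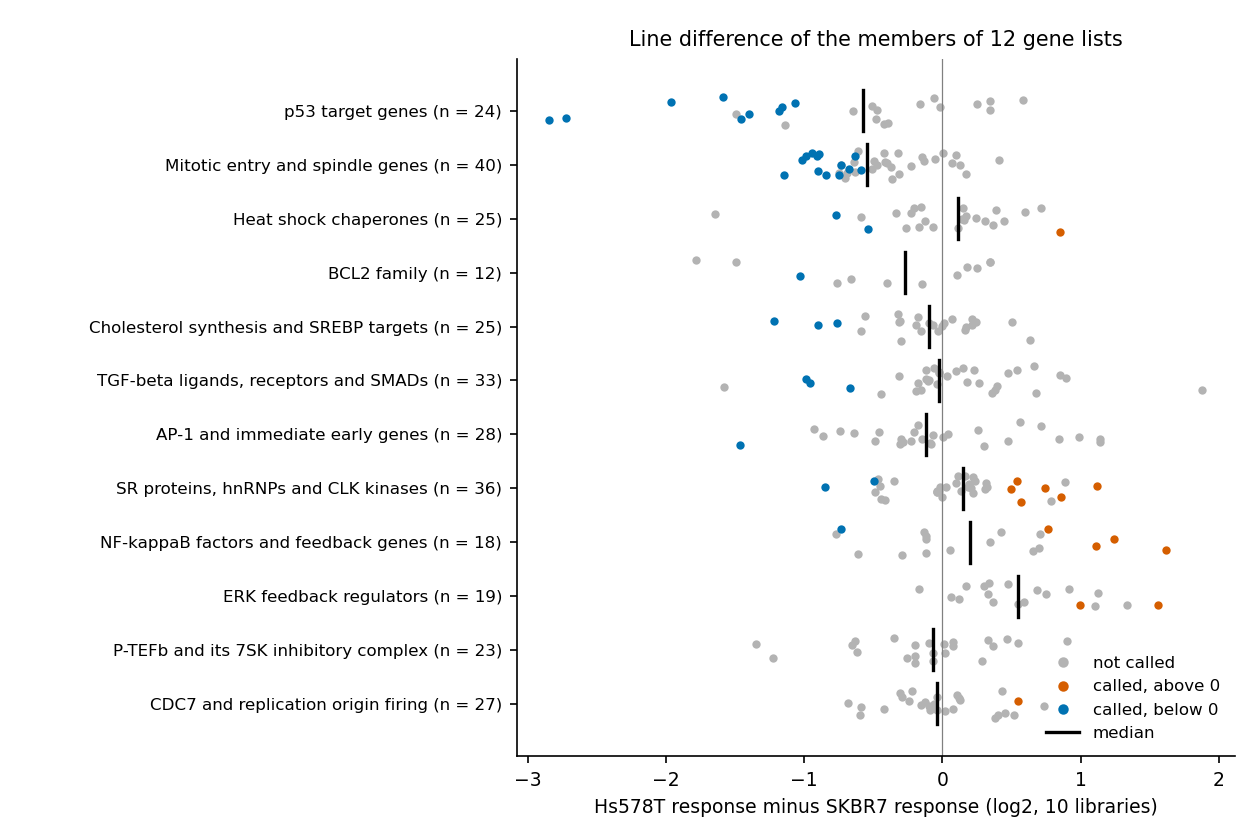
Line difference (Hs578T response minus SKBR7 response, log2, 10 libraries) of the members of 12 gene lists, 1 point per gene, with the median of a list as a bar. The p53 targets (median -0.58) and mitotic genes (-0.55) lie mostly below zero with 9 of 24 and 13 of 40 called, the ERK feedback regulators (0.54) mostly above it with 2 of 19 called. The median over all tested genes was 0.09.

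Genes whose lines moved in opposite directions were counted in all 12 libraries. Of the 33 called with 10 libraries with mean responses past 0.5 in opposite directions, 16 had co-treated and lapatinib libraries that did not overlap in either line over all 12. Over all 12967 genes, whether called or not, the groups stood apart in this way in 42 genes with the Hs578T values above and the SKBR7 values below (0.324%), and in 27 the other way round (0.208%). Of these the 16 make up 5 and 11. Higher in Hs578T and lower in SKBR7 were NEDD4L, PRICKLE2, RAB15, SERPINB8 and TRAF1. Lower in Hs578T and higher in SKBR7 were CCNG1, CDKN1A, FAM102B, IER5, MDM2, PURB, RBM12B, RBM14, SESN1, TP53INP1 and TRNT1. PRICKLE2, a planar cell polarity protein, had the largest difference of these. The 3 co-treated Hs578T libraries held PRICKLE2 at log2 values of 5.87, 5.70 and 5.73, and the 3 lapatinib libraries at 4.51, 4.26 and 4.62. Co-treated SKBR7 libraries were at -2.04, -2.24 and -1.99, and those of lapatinib at 0.49, -1.86 and 0.22. The SKBR7 values were near or below zero, and its SKBR7 response of -2.47 (adjusted p = 0.236) did not pass, and the difference was 3.77 (SE 0.60, adjusted p = 0.000864). NEDD4L, a ubiquitin ligase, rose by 0.50 in Hs578T and fell by 0.66 in SKBR7 over 4 libraries, and differed by 1.16 (SE 0.28, adjusted p = 0.0239). TRAF1, an adaptor of TNF receptors, rose in Hs578T (0.80) with -0.82 in SKBR7 (adjusted p = 0.369), and differed by 1.62 (SE 0.37, adjusted p = 0.0159).

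Several genes of the fixed set, among them the drug targets EGFR, CDC7 and CDK9, moved in both lines with a line difference that did not pass. EGFR, the receptor that lapatinib inhibits, fell in both. EGFR reached log2 values of 6.90, 6.64 and 6.86 in Hs578T under co-treatment and 7.86, 8.46 and 8.38 under lapatinib. For SKBR7, the same log2 values were 6.91, 7.10 and 7.29 and 8.44, 8.03 and 8.75. It fell by 1.43 in Hs578T and by 1.40 in SKBR7 over 4 libraries, and the difference was -0.13 (95% interval -0.72 to 0.47) with 12 libraries and -0.04 (-0.45 to 0.38) with 10. POLR2A, the largest subunit of RNA polymerase II, fell by 1.06 and 1.36, with a difference of 0.31 (-0.12 to 0.73). CDC7 fell by 1.01 and 1.11, with 0.11 (-0.53 to 0.75). CDK9 rose by 1.502 and 1.13, with 0.37 (-0.11 to 0.84). SLC38A2, an amino acid transporter, fell by 1.88 and 2.25, with 0.37 (0.04 to 0.70), and MYC rose by 0.57 and 0.66, with -0.09 (-0.49 to 0.32). RBM15, a subunit of the m6A writer complex, rose by 2.27 and 3.10, with -0.83 (-1.39 to -0.27). The intervals of SLC38A2 and RBM15, which are not adjusted for the number of genes, exclude zero, though neither difference passed after adjustment. For each of the genes in this paragraph, a difference within its interval remains possible.

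P-TEFb and its inhibitory 7SK complex had 0 members called of 23 with 10 libraries, beside 0.841% higher and 1.73% lower over all genes. At an unadjusted p below 0.05, 3 were higher and 2 lower, and the median was -0.07. After the new normalisation 2 were higher and 2 lower, beside 6.01% and 8.38% of all genes. MEPCE, the capping enzyme of 7SK RNA, fell by 2.44 in Hs578T and 2.52 in SKBR7, with a difference of 0.08 (95% interval -0.39 to 0.56). HEXIM1, the protein that holds P-TEFb inactive, was a gene whose line difference turned on 1 library. In Hs578T, its log2 values were 1.01, 1.51 and 0.89 with co-treatment and 4.96, 4.86 and 4.97 with lapatinib. In SKBR7, they were 0.44, 4.02 and 3.91 with co-treatment and 6.16, 6.94 and 6.66 with lapatinib. SKBR7 co-treatment replicate 1 lay far below the other 2 co-treated libraries. With 12 libraries the line difference was 0.00 (95% interval -2.03 to 2.04), with 10 it was -1.35 (SE 0.43, adjusted p = 0.100), and after the new normalisation it was -1.40 (adjusted p = 0.00301). CDC7 and replication origin genes had 1 higher member of 27, MCM3, a subunit of the replicative helicase, at 0.55 (SE 0.15, adjusted p = 0.0467), and 0 lower ones. MCM2, another subunit, had -0.10 (95% interval -0.45 to 0.26).

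The 13 mitochondrially encoded mRNAs changed sides with the libraries used. Their median line difference was -0.92 with 12 libraries and 0.48 with 10, with 0 members called in either (0 at an unadjusted p below 0.05 with 12 libraries and 10 higher with 10). After the new normalisation of the 10, 6 were higher (6.01% of all genes), and 0 to 8 were higher when a further library was left out, with 8 without SKBR7 lapatinib replicate 1. In SKBR7 all 13 rose over 6 libraries (0.324% of all genes) and 0 passed over 4, and all 13 rose in Hs578T (28.6% of all genes). MT-ATP8, a subunit of ATP synthase, went from -1.73 to 0.57. The collagen and matrix list went from a median of 0.52 to -0.01, and COL1A2 from 3.61 to -0.47. These were the transcripts by which SKBR7 lapatinib replicate 2 stood apart from the other libraries. Cytosolic ribosomal proteins had 0 of 85 called with 10 libraries, with a median of 0.12, and nuclear respiratory chain subunits 0 of 74 with 0.25. Over all genes, 0.841% were higher and 1.73% lower, so 0 called in a list does not show that its members respond alike. Proteasome subunits (0 of 37), Mediator subunits (0 of 31) and interferon response genes (0 of 24) had no member called either. At an unadjusted p below 0.05 with 10 libraries, these 5 lists had 3, 12, 5, 3 and 1 higher members and 0, 0, 0, 3 and 1 lower ones. Of the respiratory chain subunits, 9 were higher when SKBR7 lapatinib replicate 1 was also left out. Of 372 ZNF genes, 1 was higher and 2 were lower, beside 0.841% and 1.73% of all genes.

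Other lists had 1 to 3 called members with 10 libraries, shares that are to be read beside 0.841% higher and 1.73% lower over all genes. Of 32 genes of the DNA damage checkpoint and break repair, 1 was higher and 0 lower. This was RAD50, a subunit of the break-sensing MRN complex, which fell in SKBR7 over 4 libraries (-0.81, adjusted p = 4.21e-05) with -0.01 in Hs578T, and differed by 0.80 (SE 0.18, adjusted p = 0.0131). Of 34 collagen and matrix genes, PLAUR, the urokinase receptor, was higher (0.98 (SE 0.21, adjusted p = 0.0126)), and THBS1 and TIMP3, an inhibitor of metalloproteinases (-0.76 (SE 0.17, adjusted p = 0.0131)), were lower. Of 46 translation initiation factors, 2 were lower, EIF5, which triggers GTP hydrolysis at the start codon (-0.54 (SE 0.13, adjusted p = 0.0270)), and EIF3A, the largest subunit of eIF3 (-0.54 (SE 0.14, adjusted p = 0.0346)). Of 20 caspases, apoptosome and IAP genes, BIRC3 was higher and BIRC2, its paralogue, was lower (-0.69 (SE 0.16, adjusted p = 0.0179)). EGLN1, the prolyl hydroxylase of HIF, was the other lower member of 25 hypoxia and glycolysis genes beside SLC2A1 (-0.77 (SE 0.18, adjusted p = 0.0167)), and POLR2D the 1 lower member of 11 RNA polymerase II subunits (-0.79 (SE 0.21, adjusted p = 0.0465)). CTGF was the 1 lower member of 21 YAP and TAZ genes, SESN2 of 26 ATF4 genes and IER5 of 28 AP-1 and immediate early genes. The ZNF genes called were ZNF326 above zero, and ZNF488 (-2.26 (SE 0.55, adjusted p = 0.0237)) and ZNF146 (-0.86 (SE 0.16, adjusted p = 0.00427)) below it. These counts moved when a further library was left out. The collagen and matrix list then had 0 to 11 higher members, with 11 without SKBR7 lapatinib replicate 1, and 1 to 12 lower ones, with 12 without SKBR7 lapatinib replicate 3. The ZNF genes had 0 to 9 higher and 1 to 10 lower members, with the highest counts without the same 2 libraries, and the AP-1 list had 1 to 6 lower ones. In the other lists of this paragraph, the counts of higher and of lower members ran from 0 or 1 to at most 4.

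Over all genes, 0.841% were higher and 1.73% lower with 10 libraries, so that a count of 0 in a short list is near these shares. No member was called by limma with 10 libraries in the lists that follow, whose members at an unadjusted p below 0.05 are given in parentheses. They were the S phase genes, with 24 tested (5 higher and 3 lower), the EGFR family and its ligands, with 11 tested (2 higher and 0 lower), and secreted cytokines, with 9 tested (2 higher and 1 lower). The same held for the m6A machinery, with 15 tested (1 higher and 2 lower), chromatin acetylation regulators, with 25 tested (5 higher and 1 lower), and mitochondrial ribosomal proteins, with 76 tested (10 higher and 1 lower). Notch, Wnt and Hedgehog factors had 31 tested (1 higher and 1 lower), homeobox cluster genes 16 tested (2 higher and 0 lower) and replication-dependent histones 12 tested (1 higher and 0 lower). Of mesenchymal markers, 0 of 16 tested (3 higher and 2 lower) passed, and 1 leukocyte marker (ITGAM) and 2 endothelial markers (ERG and ESAM) that could be tested did not pass. IL11, a cytokine of the IL-6 family, fell in both lines, by 2.66 in Hs578T and 2.62 in SKBR7 over 4 libraries, with a line difference of -0.04 (95% interval -1.07 to 1.00).

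The called genes were also compared by promoter and by gene length. RefSeq windows (GRCh38.p14) were matched by symbol for 8929 of 12964 tested symbols, 84 of the 109 higher genes and 166 of the 224 lower ones. On either strand, TATAAA occurred in 8.33% of the higher, 8.43% of the lower and 7.75% of all genes with a window. TGANTCA, the AP-1 motif, occurred in 5.95%, 7.23% and 6.92%, and TGACGTCA, the cAMP response element, in 5.95%, 5.42% and 3.96%. The shares were 85.7%, 81.9% and 78.6% for GGGCGG, 9.52%, 9.64% and 10.7% for CCGGAAGT (ETS), and 25.0%, 27.7% and 24.0% for GATTGG (NF-Y). GAANNTTC, a unit of the heat shock element, occurred in 9.52%, 7.83% and 6.48%. The shares in called genes were near those of all genes for each motif, and no test was made. Gene span in the deposited coordinates had a Spearman correlation over genes of -0.11 with the line difference of 12 libraries and -0.03 with that of 10. It was -0.18 with the response in Hs578T and -0.21 with that in SKBR7 over 4 libraries. These correlations are weak and describe these libraries only.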

How the data were processed

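RNA of 12 libraries was compared, 3 each of Hs578T and SKBR7 cells under lapatinib or lapatinib with PHA-767491. The authors deposited log2 expression per gene and library, scaled by TMM and then quantile-normalised according to the methods. Reads were counted with featureCounts 1.4.6 on Ensembl release 84 (GRCh38) and scaled with edgeR, per the labels, which name HiSat2 2.2.0.4 as aligner where the methods name STAR. Depth is known only by the number of genes listed, and quantile normalisation spreads a library with few genes over the same range, which can move low genes. A deposited table of averages and fold changes was not used, and 36 repeated lines of 36517 were left out.

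Cell means were fitted with limma 3.58.1 (lmFit, eBayes with a variance trend) in R 4.3.3, with Benjamini-Hochberg adjustment over 12967 genes and 0.05 as threshold. The line difference used 12 libraries, or 10 without the 2 SKBR7 libraries that list the fewest genes, and responses were fitted per line. Its fit assumes equal spread in both lines, although weights estimated per line were 2.97 in Hs578T and 0.337 in SKBR7. With 10 libraries, where each SKBR7 arm has 2, its SE may understate the SKBR7 spread. A fit with weights per line was made with 12 libraries only. Replicates were triplicate treatments in 6-well plates per the methods, and whether the wells came from separately grown cultures is not given in the sources used here. The p-values therefore refer to spread between these wells. Each gene's variance was also drawn towards a trend over all genes, so a p-value is not a measure of that gene's spread alone. Without the trend, 4270 genes rather than 6056 passed for the Hs578T response, and 0 rather than 120 for the SKBR7 response. On simulated data, the fit with 12 or with 10 libraries missed part of the true differences and called some genes that were unchanged. Alternatives were other scalings, filters, variance models, a fit of all 24 libraries, a replicate block and leaving out each library. Same-numbered libraries deviated together at correlations from -0.22 to 0.60, so numbers were not taken as pairs. Summaries ran in Python 3.11.15 (numpy 2.4.6, pandas 2.3.3, scipy 1.17.1), and plots used matplotlib 3.10.9.

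The members and the 43 gene lists were chosen with earlier results of these data known. Named were the 12 largest line differences per direction that passed with 12 libraries, or failing that with 10, with a mean above the median gene, opposite responses without overlap, up to 4 passing members of each list (2 by size where none passed) and a set fixed by the treatment, such as EGFR, MYC and HEXIM1. Other genes are marked in the text, and 1 gene that the rule took is not reported here.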

Additional observations from a re-analysis of the deposited data

Results flagged for a closer look

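For 2 genes the response to added PHA-767491 differed between the lines by the test of the difference itself, over all 12 libraries (limma, Benjamini-Hochberg over 12967 genes). CDKN1A had a line difference of -1.92 (SE 0.27, adjusted p = 0.00676), lower with co-treatment in 3 of 3 Hs578T libraries and higher in 3 of 3 SKBR7 libraries than any lapatinib library of the line. TGM2 had a line difference of 1.52 (SE 0.25, adjusted p = 0.0341), with 3 of 3 co-treated Hs578T libraries above the lapatinib libraries and overlapping SKBR7 groups. Neither gene passed without a variance trend or with all 24 libraries in the fit, and TGM2 also failed to pass after centring or without a filter.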

How the results depend on the processing

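The number of genes called for the line difference depended on the libraries and the scaling. Against 2 genes with 12 libraries, it was 333 with 10 libraries and 1865 (779 higher, 1086 lower) when those were quantile-normalised anew. Over 12 libraries it was 635 (185 higher, 450 lower) after new quantile normalisation, 5 (all lower) after centring, 1 without a filter, 0 without a variance trend (569 at an unadjusted p below 0.05) and 0 with all 24 libraries in the fit (204 unadjusted). Stricter filtering gave 2, and array weights and the replicate block gave 3 each. Leaving out 1 of the 12 libraries gave 0 to 24 genes, 0 without SKBR7 co-treatment replicate 2 or 3, 9 without SKBR7 lapatinib replicate 1 and 24 without SKBR7 lapatinib replicate 2. Leaving out 1 more of the 10, which was added after seeing the data and leaves an SKBR7 arm with 1 library assumed to vary like the others, gave 113 to 951. The extremes were 113 (63 higher) without SKBR7 co-treatment replicate 3, 149 (15 higher) without replicate 2, 866 (628 higher) without SKBR7 lapatinib replicate 1 and 951 (160 higher) without replicate 3. The cause was not tested.

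The Hs578T response (6056 genes) fell to 407 (126 higher, 281 lower, against 3712 and 2344) in a fit over the 12 libraries of both lines and was 4493 to 6072 when 1 library was left out. The SKBR7 response (120 genes) was 1062 with 10 libraries, 3724 after new normalisation of those, 248 in the fit of both lines, 656 after new normalisation of 12, 14 after centring and 0 without a variance trend (436 unadjusted). It was 10 without co-treatment replicate 1 and 211 without lapatinib replicate 2, the range over single libraries. PHA-767491 against DMSO in SKBR7 (882 genes) gave 0 without a variance trend (3105 unadjusted), 558 after new normalisation, 1333 with the replicate block, and 112 to 3932 when 1 library was left out (112 without DMSO replicate 3, 3932 without PHA-767491 replicate 2). The block gave 170 genes for the SKBR7 response, and replicate numbers were not taken as pairs.

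Among the settings of the named genes, 4474 results kept their side of the threshold, and 192 of these changed sign without passing in either fit. Another 1009 passed that had not, 17 no longer passed and 7 passed with the other sign. The latter were HEXIM1 (-1.40 with 10 libraries normalised anew, and -1.60 without SKBR7 lapatinib replicate 3 of the 10), COL1A2 (-1.60 in that same setting) and MT-ATP8 (0.54 with 10 normalised anew, 0.61 without Hs578T co-treatment replicate 2 of the 10, 0.67 without Hs578T lapatinib replicate 3 and 0.69 without SKBR7 lapatinib replicate 1). Over all fits that left out 1 library, COL1A2 ran from -1.60 to 5.43, HEXIM1 from -1.60 to 0.62 and MT-ATP8 from -3.002 to 0.69. Of the medians of the lists, 149 stayed within the spread and 23 moved. Depth per library is unknown, and with 12 libraries a gene that did not pass may still differ between the lines.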
